A study of Mus musculus with 2 samples.

Results

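Glycosyltransferases build the sugar chains of surface glycoproteins and glycolipids, and the members described here are the genes of 11 enzyme series. They are the numbered St3gal, St6gal, St8sia, B4galt, B3galt, B3gnt, Galnt, Gcnt, Mgat and Fut genes, together with St6galnac, taken by gene symbol from the authors' annotation of a mouse array. The rule found 74 genes of 20663, measured by 153 probe sets that name 1 gene each. Where a gene had several probe sets, the one with the highest mean log2 signal stands for it.

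The samples were intraepithelial lymphocytes (IEL), which sit among the enterocytes lining the gut. They came from the small intestine of RAG knockout mice that had received naive CD4 cells. Such hosts lack their own lymphocytes of the T and B lineages, and the transfer is a model of colitis. One population was CD4CD8aa IEL, which carry the CD8 alpha-alpha homodimer beside CD4, and the other was CD4 IEL without CD8 alpha. Both were sorted from C57BL/6 animals when 8 weeks had passed since transfer, and each was hybridised to 1 single-colour Affymetrix array. How many animals were pooled and how the gates were set is not stated in the sources, and with 1 array per group no difference below carries a test. In bulk RNA, fewer cells of a type and less RNA per cell cannot be told apart.

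Most of these enzymes work in the Golgi, each adding 1 sugar in a fixed linkage. Galnt enzymes start mucin-type O-glycans, Mgat enzymes branch N-glycans, B4galt and B3gnt enzymes lengthen the branches with alternating galactose and N-acetylglucosamine, and sialyltransferases and fucosyltransferases cap them. On T cells the caps and branches shape binding to selectins, galectins and siglecs, and they are remodelled when naive cells become effector cells.

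Each signal below is a multiple of its array's median, and each difference is the log2 signal in CD4CD8aa IEL less that in CD4 IEL. A gene counted as detected above a floor of 0.4 times the array median, signals below the floor were set to it, and a fold that starts or ends at the floor is written "at least". The sort is visible in Cd8a, with 291.4 in CD4CD8aa IEL and 3.79 in CD4 IEL, and Cd4 had 86.4 in CD4CD8aa IEL and 72.6 in CD4 IEL. Cd8b1, the CD8 beta chain, stayed near the array median at 1.29 in CD4CD8aa IEL and 0.514 in CD4 IEL. Cd3e and Cd3g, which encode chains of the T cell receptor complex, had 118.3 and 335.3 in CD4CD8aa IEL, and 58.97 and 270.9 in CD4 IEL. As the only measure of spread, probe sets of the same gene were set against each other: the SD of their log2 differences was 0.807 for signals under the array median, 0.674 up to 2 times it, 0.554 up to 4 times, 0.453 up to 16 times, 0.411 up to 64 times and 0.354 for brighter ones. It covers neither animals nor RNA preparations.

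The glycosyltransferase genes were for the most part alike in the 2 populations, and the exceptions went both ways. Of the 74 genes 64 were detected, and 53 of these lay within 2-fold. At least 2-fold higher in CD4CD8aa IEL were 5 genes (St3gal3, Fut11, B3gnt9, St6galnac5 and St8sia3), and at least 2-fold lower were 6 (St6gal1, St6galnac1, Galnt9, Fut7, B3gnt5 and B3galt1). Together they are 17.2% of the detected members, beside 12.9% of all 17376 detected genes, of which 6.65% reached 2-fold as higher and 6.26% as lower. The median log2 difference was -0.03 over the members and 0.06 over all detected genes.

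Of the 64 detected members 53 were above the floor on both arrays, beside 14033 of all 17376 detected genes. The rest were above it in CD4CD8aa IEL alone (4) or in CD4 IEL alone (7), a split that was not counted over all genes. The other 10 genes were below the floor on both arrays at the probe set taken: B3gnt3, B3gnt4, B3gnt8, Fut1, Fut4, Galnt13, Galnt14, Mgat5b, St6gal2 and St8sia2. Many of the genes at least 2-fold apart were dim, since 5 of the 11 stayed under 2 times the array median on the brighter array. Above 4 times the array median on at least 1 array, 3 of 34 members were at least 2-fold apart (St3gal3 higher, St6gal1 and St6galnac1 lower), which is 8.82%, beside 5.23% of 8082 such genes (2.52% higher and 2.71% lower). None of the 15 members above 10 times the array median reached 2-fold, beside 4.27% of 5595 genes.

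**Figure D1:**
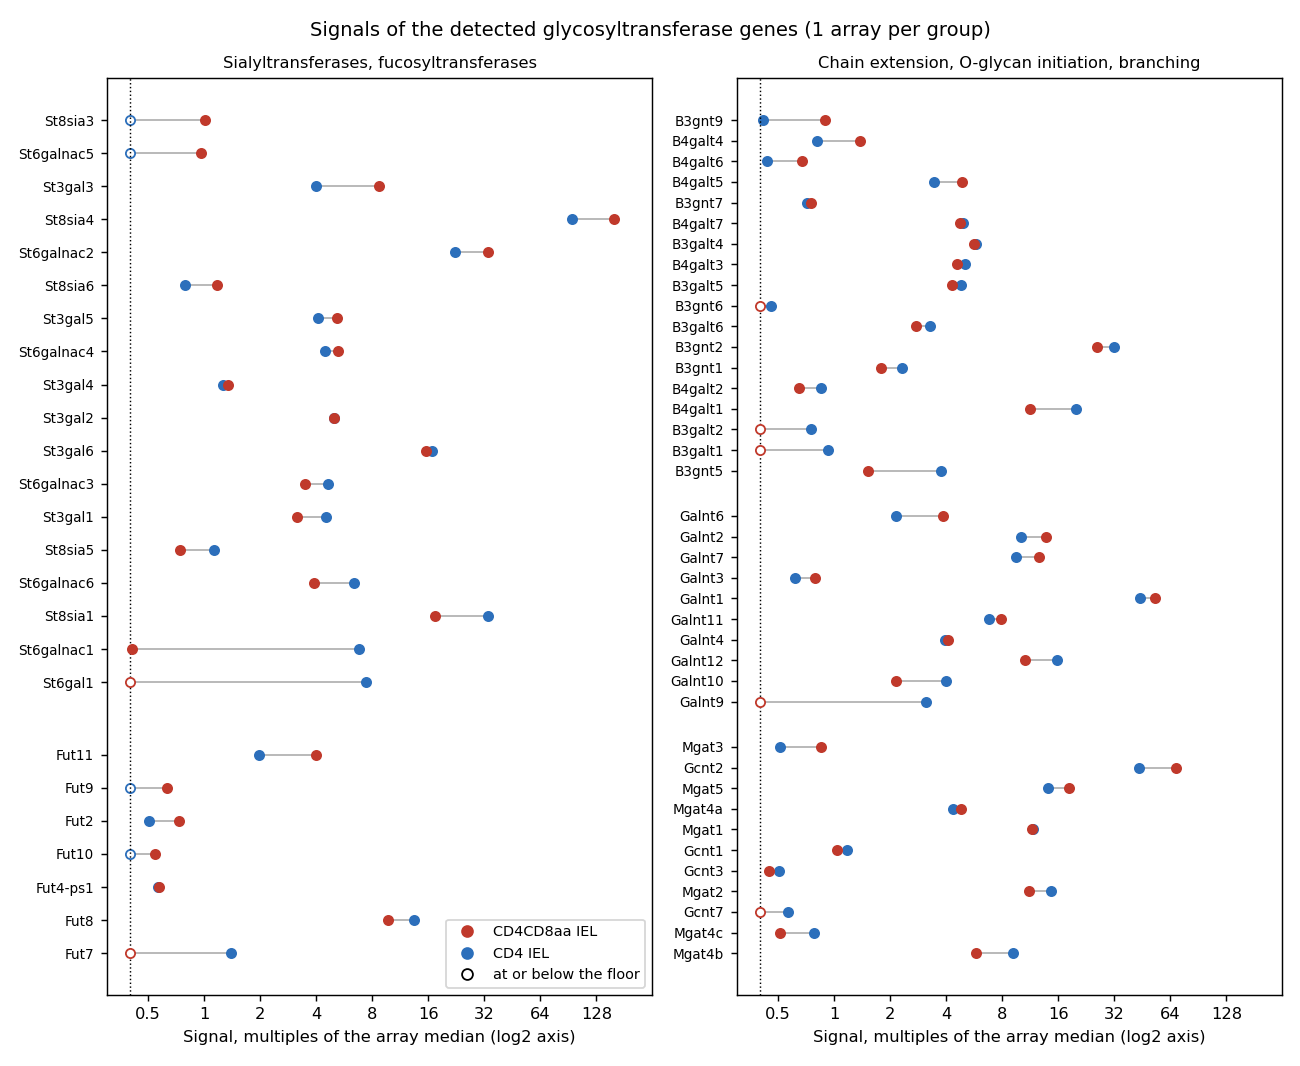
Signals of the 64 detected members in multiples of the array median on a log2 axis, with red points for CD4CD8aa IEL and blue points for CD4 IEL (1 array each), grouped by family and ordered within it by the difference. Open points lie at or below the floor of 0.4 (dotted line), and most pairs sit close together, while St6gal1, St6galnac1 and Galnt9 have long lines that end at or beside the floor in CD4CD8aa IEL.

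**Figure D2:**
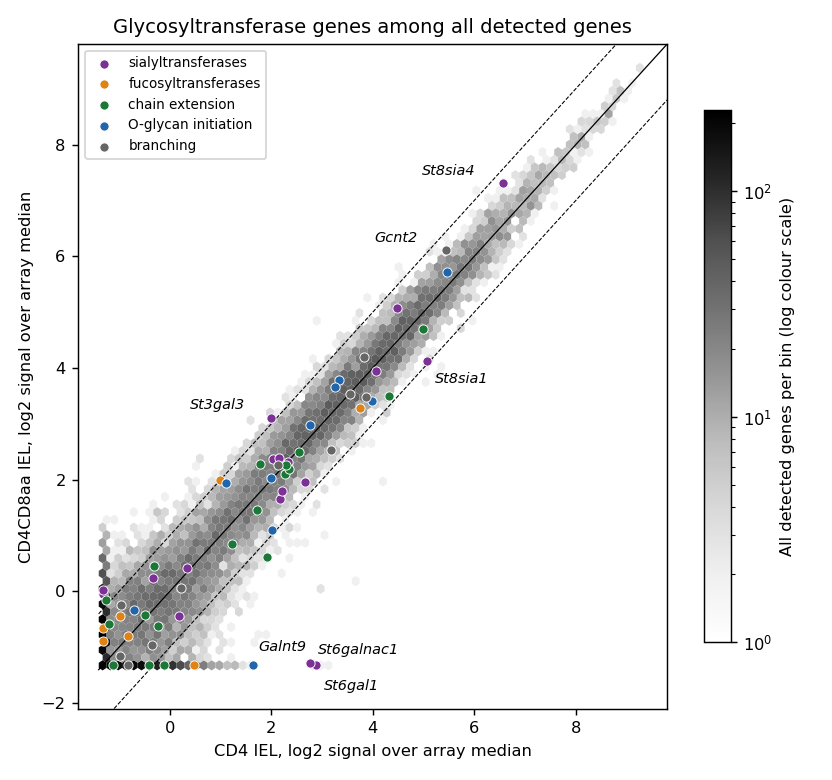
Log2 signal over the array median in CD4 IEL (horizontal) and CD4CD8aa IEL (vertical), with all 17376 detected genes as grey bins and the 64 detected members as points coloured by family. The solid line marks equal signals and the dashed lines 2-fold, and all but 11 members lie between the dashed lines.

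Among the 20 sialyltransferases, 18 were detected, with 3 genes 2-fold or more higher, 2 lower by as much and 13 within 2-fold. The share at least 2-fold apart was 27.8%, beside 12.9% of all detected genes. The log2 differences of this family had an SD of 1.55, beside 0.697 over all detected genes, and their median was 0.04. The lowest values, -4.21 for St6gal1 and -4.05 for St6galnac1, weigh heavily on that SD. The other detected sialyltransferases ran from -0.94 to 1.34. St6gal1, which caps N-glycans with sialic acid in the linkage that CD22 binds and galectin-1 avoids, had a signal of 0.138 in CD4CD8aa IEL and 7.39 in CD4 IEL, lower by at least 18.5-fold. The same gene's other probe sets showed no such gap, with 0.935 and 0.467 in CD4CD8aa IEL and 0.907 and 0.478 in CD4 IEL. The probe set with the difference was taken by a narrow margin of mean log2 signal (0.01, against -0.12 for the next), and the median over the 3 probe sets was -0.03.

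St6galnac1, which sialylates the first sugar of mucin-type O-glycans and so makes the sialyl-Tn antigen, had 0.413 in CD4CD8aa IEL and 6.83 in CD4 IEL. It was 16.5-fold lower, with its signal in CD4CD8aa IEL just above the floor, and its 1 probe set leaves no second measurement. In the other direction, St3gal3, which caps galactose at the ends of N-acetyllactosamine chains, had 8.66 in CD4CD8aa IEL and 3.996 in CD4 IEL, 2.17-fold higher, or 1.12 on the log2 scale at a same-gene SD of 0.453. Its dimmer probe set had 0.472 in CD4CD8aa IEL and 0.145 in CD4 IEL, which the floor limits to a log2 difference of 0.24. Under a floor of 4 in place of 0.4, St3gal3 was the only member still at least 2-fold apart, since that floor lifts the low signals of St6gal1 and St6galnac1 to within 2-fold (log2 differences of -0.89 and -0.77).

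St8sia enzymes add a further sialic acid to one already in place. St8sia4, which makes polysialic acid, had 158.9 in CD4CD8aa IEL and 94.4 in CD4 IEL, 1.68-fold higher, and its other probe set had 16.99 and 13.4, a log2 difference of 0.35. St8sia1, the synthase of the ganglioside GD3, went the other way. Its 3 probe sets had 17.5, 6.21 and 1.15 in CD4CD8aa IEL, and 33.6, 15.8 and 3.04 in CD4 IEL, so that the log2 differences were -0.94, -1.35 and -1.41. The probe set taken by the rule thus fell short of 2-fold while both others passed it, and the difference of each was larger than the same-gene SD at its signal. St8sia3 and St6galnac5, which act on gangliosides in the brain, were higher near the array median. St8sia3 had 1.01 in CD4CD8aa IEL and 0.136 in CD4 IEL (at least 2.53-fold), and St6galnac5 had 0.968 in CD4CD8aa IEL and 0.113 in CD4 IEL (at least 2.42-fold). A floor raised to 0.8 leaves them log2 differences of 0.34 and 0.27.

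The 300 bases around the start of St8sia1 and St8sia4 (250 before to 50 after) are shown because these genes differed in opposite directions, with every detected probe set in 1 direction each. Both are RefSeq sequences on GRCm38.p6, from chr6:142964403-142964702 (minus strand) for St8sia1 and chr1:95667545-95667844 (minus strand) for St8sia4, written 5′ to 3′ along the gene. Capitals mark matches to any of 4 short motifs of T cell transcription factors searched on both strands: TGTGGT (RUNX), AGGTGT (T-box), AGGTCA (ROR) and CTTTGA (TCF/LEF).
St8sia1: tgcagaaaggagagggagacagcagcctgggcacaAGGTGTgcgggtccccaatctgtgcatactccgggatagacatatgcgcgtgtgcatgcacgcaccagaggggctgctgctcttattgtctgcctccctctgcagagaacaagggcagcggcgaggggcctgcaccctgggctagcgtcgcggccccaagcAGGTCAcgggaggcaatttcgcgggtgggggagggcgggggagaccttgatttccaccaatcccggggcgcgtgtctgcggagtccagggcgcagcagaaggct
St8sia4: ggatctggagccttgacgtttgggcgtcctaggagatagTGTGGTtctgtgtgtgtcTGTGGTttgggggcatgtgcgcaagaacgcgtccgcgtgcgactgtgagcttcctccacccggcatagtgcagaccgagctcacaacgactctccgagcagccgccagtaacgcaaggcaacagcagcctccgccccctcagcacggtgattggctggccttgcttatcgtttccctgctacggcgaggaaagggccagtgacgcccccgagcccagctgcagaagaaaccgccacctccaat
The St8sia1 window held 1 T-box match and 1 ROR match, and the St8sia4 window held 2 RUNX matches. Among 32851 such windows of all genes, 16.8% held the RUNX letters, 13.7% the T-box letters, 16.3% the ROR letters and 16.0% the TCF/LEF letters. Of the members 52 had a window, 75 windows in all, and the letters stood in 8 (RUNX), 7 (T-box), 4 (ROR) and 12 (TCF/LEF) of these. A match is a run of letters and no evidence of binding.

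The other sialyltransferases lay within 2-fold. St3gal1, which caps core 1 O-glycans and in mice is needed for the survival of naive CD8 T cells, had 3.15 in CD4CD8aa IEL and 4.51 in CD4 IEL, with its other probe set in the opposite direction (0.42). St3gal6, one of the enzymes that complete selectin ligands, had 15.5 in CD4CD8aa IEL and 16.8 in CD4 IEL, with its other detected probe sets between 0.11 and 1.16. St3gal5, the synthase of the ganglioside GM3, had 5.15 in CD4CD8aa IEL and 4.10 in CD4 IEL. St3gal2, with 4.98 in CD4CD8aa IEL and 4.99 in CD4 IEL, was nearly equal at that probe set, although its 3 probe sets ranged from -1.45 to 0.60. The members of the St6galnac series that act on O-glycans and gangliosides split: St6galnac2 had 33.5 in CD4CD8aa IEL and 22.3 in CD4 IEL, a log2 difference of 0.59, whereas St6galnac6 had 3.91 in CD4CD8aa IEL and 6.37 in CD4 IEL, a log2 difference of -0.70. St6galnac3 (3.49 in CD4CD8aa IEL, 4.65 in CD4 IEL) and St6galnac4 (5.25 in CD4CD8aa IEL, 4.45 in CD4 IEL) differed by less than the same-gene SD of 0.453 at the probe sets taken. A second probe set of St6galnac4 had 4.10 in CD4CD8aa IEL and 2.59 in CD4 IEL, a log2 difference of 0.66 at a same-gene SD of 0.554. St3gal4, St8sia5 and St8sia6 were dim, with log2 differences from -0.62 to 0.58.

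Fucosyltransferases were mostly dim. Of 9 genes 7 were detected, 1 of them higher and 1 lower by 2-fold or more (28.6%, beside 12.9% of all detected genes). The median was 0.44. Under a floor of 0.8 it was -0.47, the value of Fut8, and under a floor of 2 it was 0.26. Fut7, which completes sialyl Lewis x on the ligands of E- and P-selectin, had 0.221 in CD4CD8aa IEL and 1.39 in CD4 IEL, at least 3.48-fold lower at its 1 probe set, but its log2 difference was -0.80 with the floor 2 times as high. Fut11 had 3.99 in CD4CD8aa IEL and 1.98 in CD4 IEL, 2.01-fold higher, while its other probe sets gave log2 differences of -0.21 and 0.43. Fut11 therefore passed 2-fold at 1 of 3 probe sets, and was under 2-fold with the raw intensities. Fut8, the enzyme of core fucose on N-glycans, had 9.70 in CD4CD8aa IEL and 13.4 in CD4 IEL, a log2 difference of -0.47 beside a same-gene SD of 0.453. Its other probe sets, near the array median, gave -0.17 and 1.30, so they disagree on the direction. Fut2, which makes the H antigen in gut epithelium, Fut9, Fut10 and the pseudogene Fut4-ps1 stayed below the array median on both arrays, with log2 differences from 0.02 to 0.66.

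**Figure D3:**
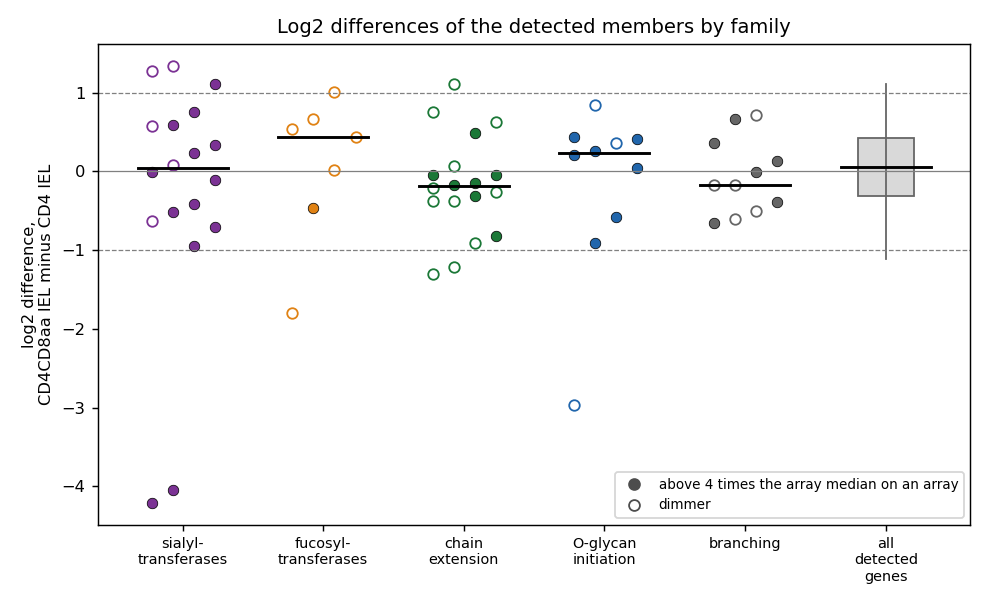
Log2 differences (CD4CD8aa IEL minus CD4 IEL) of the detected members by family, 1 point a gene, filled above 4 times the array median on at least 1 array and open if dimmer, with a bar at each median. The box for all detected genes spans the 25th to the 75th percentile and its line the 5th to the 95th (-1.12 to 1.11), dashed lines mark 2-fold, and 2 sialyltransferases and Galnt9 lie well below the other points.

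Enzymes of chain extension had more differences below 0 than above it. Of 21 genes 18 were detected, 13 of them with a difference below 0 (72.2%, beside 45.2% of all detected genes), and the median was -0.19. Most of the differences below 0 were smaller than the same-gene SD at their signal. By 2-fold or more 1 gene was higher and 2 were lower (16.7%, beside 12.9% of all detected genes), and 15 lay within it. B4galt1, the main galactosyltransferase of N-glycans, had 11.3 in CD4CD8aa IEL and 19.9 in CD4 IEL, 1.76-fold lower, a log2 difference of -0.82 beside a same-gene SD of 0.453. B3gnt2, the main enzyme of polylactosamine chains on T cells, had 25.8 in CD4CD8aa IEL and 31.97 in CD4 IEL, and its other probe set was lower as well (-0.59). B3gnt5, which starts lacto-series glycolipids, had 1.53 in CD4CD8aa IEL and 3.76 in CD4 IEL, 2.46-fold lower, at the 1 of its 2 probe sets that was detected.

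All 5 B3galt genes were among those below 0, from -1.22 to -0.04. B3galt1 had 0.292 in CD4CD8aa IEL and 0.930 in CD4 IEL, at least 2.32-fold lower, from a signal under the array median on both arrays, and its log2 difference shrank to -0.22 under a floor of 0.8. All other probe sets of B3galt1 were below the floor on both arrays. B3galt5, which makes type 1 chains in gut epithelium, had 4.28 in CD4CD8aa IEL and 4.82 in CD4 IEL at the probe set taken, but 0.956 and 3.12 at the next, a log2 difference of -1.71, and -1.63 at a further one. B3galt4, which builds gangliosides of the GM1 and GD1b type, hardly differed, with 5.64 in CD4CD8aa IEL and 5.81 in CD4 IEL. B3gnt9 had 0.899 in CD4CD8aa IEL and 0.417 in CD4 IEL, 2.16-fold higher, but its log2 difference was 0.17 with the floor 2 times as high.

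The remaining extension enzymes above 4 times the array median differed little, apart from B4galt5. B4galt3 had 4.59 in CD4CD8aa IEL and 5.08 in CD4 IEL, and B4galt7, which builds the linker of glycosaminoglycans, had 4.78 in CD4CD8aa IEL and 4.91 in CD4 IEL. B4galt5, a lactosylceramide synthase, had 4.85 in CD4CD8aa IEL and 3.45 in CD4 IEL, a log2 difference of 0.49, and was higher at both its probe sets. A second probe set of B4galt7 gave 0.90. The other 8 detected genes (B3galt2, B3galt6, B3gnt1, B3gnt6, B3gnt7, B4galt2, B4galt4 and B4galt6) had log2 differences from -0.91 to 0.76. B3gnt1 is a retired symbol that RefSeq lists as a synonym of both B3gnt2 and B4gat1.

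The enzymes that start O-glycans showed no clear lean, with a median of -0.07 when each gene was taken as the median over its probe sets. Of 12 Galnt genes 10 were detected, 7 with a difference above 0 (70%, beside 54.8% of all detected genes), and the median was 0.24, with 9 within 2-fold and 1 lower. The lower gene, Galnt9, an isoform known from brain, had 0.169 in CD4CD8aa IEL and 3.12 in CD4 IEL, at least 7.81-fold, at its 1 probe set. Galnt1 had 52.8 in CD4CD8aa IEL and 44.1 in CD4 IEL, Galnt2 had 13.7 in CD4CD8aa IEL and 10.1 in CD4 IEL, and Galnt7 had 12.7 in CD4CD8aa IEL and 9.54 in CD4 IEL. At the probe sets taken, Galnt1, Galnt2 and Galnt7 thus stood within 1 same-gene SD of equal. Not all their other probe sets did: the next of Galnt7 had 9.07 in CD4CD8aa IEL and 6.32 in CD4 IEL, a log2 difference of 0.52 at a same-gene SD of 0.453, and its dimmest gave -0.05. The median over probe sets turned Galnt1 to -0.13 and Galnt2 to -0.01, since dimmer probe sets of Galnt1 and Galnt2 gave -0.52 and down to -0.84. Galnt6 had 3.86 in CD4CD8aa IEL and 2.15 in CD4 IEL, a log2 difference of 0.84. A brighter probe set that names Galnt6 together with a predicted locus, and so did not enter the counts, had 48.5 in CD4CD8aa IEL and 24.8 in CD4 IEL, a log2 difference of 0.97. In the other direction were Galnt12 (10.7 in CD4CD8aa IEL, 15.9 in CD4 IEL) and Galnt10 (2.14 in CD4CD8aa IEL, 4.01 in CD4 IEL), although the probe sets of Galnt10 ranged from -0.90 to 0.17. Galnt11 (7.84 in CD4CD8aa IEL, 6.78 in CD4 IEL) and Galnt4 (4.07 in CD4CD8aa IEL, 3.96 in CD4 IEL) were nearly equal, with a dim second probe set of Galnt11 at -0.68, and Galnt3 was dim.

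No branching enzyme reached 2-fold at the probe set taken. All 4 Gcnt genes and 7 of 8 Mgat genes were detected, with log2 differences from -0.66 to 0.72. Gcnt1, which opens the core 2 branch that carries selectin ligands on activated T cells, was close to the median signal of each array, at 1.04 in CD4CD8aa IEL and 1.17 in CD4 IEL. Gcnt2, which makes the branched I antigen from several alternative first exons, gave both directions: the probe set taken had 68.9 in CD4CD8aa IEL and 43.3 in CD4 IEL, while the next had 18.1 in CD4CD8aa IEL and 28.1 in CD4 IEL. Its 6 detected probe sets ranged from -1.12 to 0.67, so no single direction can be given.

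Mgat1, which starts all hybrid and complex N-glycans, had 11.6 in CD4CD8aa IEL and 11.7 in CD4 IEL. Mgat2, the next step, had 11.2 in CD4CD8aa IEL and 14.6 in CD4 IEL. Mgat5, whose branch is the preferred galectin-3 ligand and whose loss in mice lowers the threshold of T cell activation, had 18.3 in CD4CD8aa IEL and 14.2 in CD4 IEL, a log2 difference of 0.37 within the same-gene SD of 0.411. A second bright probe set of Mgat5 agreed in direction (0.54), and a dim one did not (-1.19). The branching enzymes Mgat4a and Mgat4b were unlike each other, with log2 differences of 0.14 (4.80 in CD4CD8aa IEL, 4.37 in CD4 IEL) and -0.66 (5.76 in CD4CD8aa IEL, 9.10 in CD4 IEL). Mgat3, which adds the bisecting residue and blocks further branching, stayed under the array median, at 0.848 in CD4CD8aa IEL and 0.514 in CD4 IEL. Gcnt3, Gcnt7 and Mgat4c were dim too, with log2 differences from -0.60 to -0.18.

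Where a member had several detected probe sets, they often disagreed. Of 35 such genes, 17 had every probe set on the same side of 0 (48.6%, beside 43.1% of 7380 genes in all). Among the members at least 2-fold apart 7 of 11 had 1 detected probe set, St6gal1 had others close to 0 (0.04 and -0.03), and Fut11 had 1 in each direction. The other detected probe sets of St3gal3 and St8sia3 were higher too, but dim and below the floor in CD4 IEL. Their log2 differences of 0.24 and 0.31 were within the same-gene SD of 0.807.

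**Figure D4:**
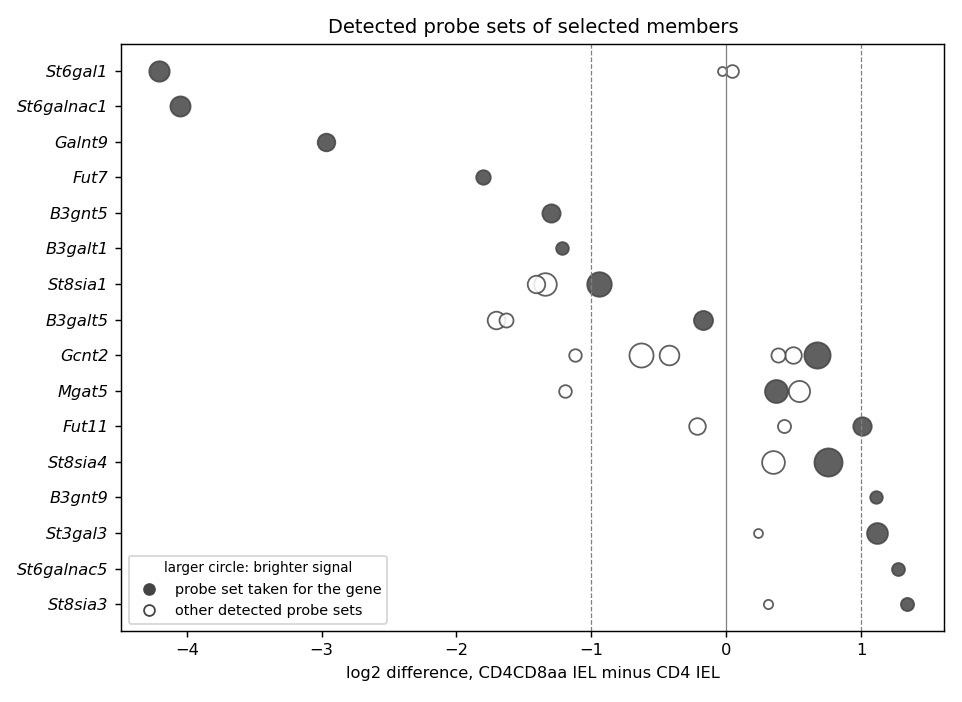
Log2 difference (CD4CD8aa IEL minus CD4 IEL) of each detected probe set for the 11 members at least 2-fold apart and for St8sia1, B3galt5, Gcnt2, Mgat5 and St8sia4, with filled circles for the probe set taken, open circles for the others and larger circles for brighter signals. The 3 circles of St8sia1 lie together between -1.41 and -0.94, those of Gcnt2 lie on both sides of 0, and the filled circle of St6gal1 lies far from its open ones.

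**Figure D5:**
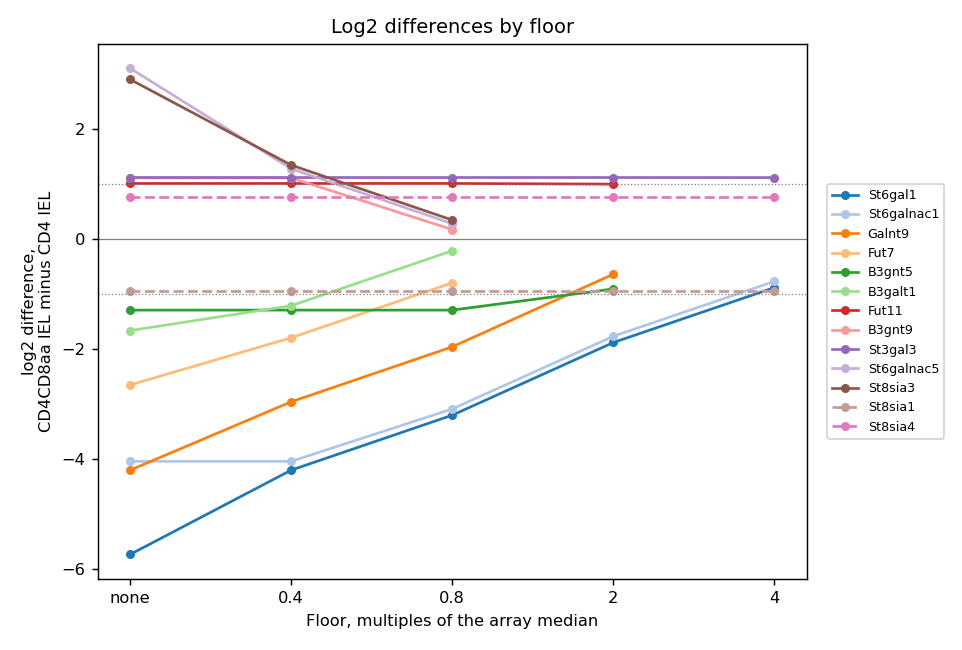
Log2 differences (CD4CD8aa IEL minus CD4 IEL) of the 11 members at least 2-fold apart, and of St8sia1 and St8sia4 (dashed), with no floor and with floors of 0.4, 0.8, 2 and 4 times the array median. Lines end where the gene is no longer detected, St3gal3, St8sia1 and St8sia4 run level, and the dim genes move towards 0.

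Other genes of the glycan pathways, listed by function, were mostly within 2-fold as well. Of 160 measured, 150 were detected, 136 of them within 2-fold, 5 higher and 9 lower by 2-fold or more (9.33%, beside 12.9% of all detected genes), with a median log2 difference of 0.04. Among 30 detected genes of N-glycan assembly and trimming none reached 2-fold, and none did among 19 detected lectins. Most of these N-glycan genes lay above 4 times the array median, where the share over all genes was 5.23%. Of 31 detected genes of sugar nucleotide supply and transport, 30 lay within 2-fold and Npl, a lyase that breaks down free sialic acid, was 2.24-fold lower at signals of 0.682 in CD4CD8aa IEL and 1.53 in CD4 IEL. Among 26 other glycosyltransferases, Galntl5 was at least 2.45-fold higher and A4gnt and Ugt8a were lower by at least 3.04-fold and 2.86-fold, all at signals near the array median or below it.

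Of 16 detected sulfotransferase genes 1 was higher and 2 lower by 2-fold or more (18.75%, beside 12.9% of all detected genes). Chst12, which sulfates chondroitin chains, had 22.97 in CD4CD8aa IEL and 10.04 in CD4 IEL, 2.29-fold higher, whereas Gal3st2 and Gal3st1, which sulfate galactose, were 3.25-fold and 2.22-fold lower at signals under 2 times the array median. Glb1, the lysosomal beta-galactosidase, had 6.66 in CD4CD8aa IEL and 14.3 in CD4 IEL, 2.15-fold lower, but its other probe sets gave 0.02 and 0.16. It was the 1 gene of 15 detected hydrolases that reached 2-fold.

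Of 13 detected genes of carrier glycoproteins and selectins, 3 were higher and 3 lower by 2-fold or more (46.2%, beside 12.9% of all detected genes). Selplg, Spn and Ptprc, carriers of sialylated and fucosylated glycans on T cells picked after their values were seen, differed little at their brightest probe sets. Selplg, which encodes the selectin ligand PSGL-1, had 283.9 in CD4CD8aa IEL and 239.2 in CD4 IEL. Spn, which encodes CD43, had 107.2 in CD4CD8aa IEL and 107.4 in CD4 IEL, but 2.70 and 5.401 at its dimmer probe set, a log2 difference of -0.998. Ptprc, which encodes CD45, had 355.8 in CD4CD8aa IEL and 387.1 in CD4 IEL. Cd44, a hyaluronan receptor that can carry selectin ligands, was lower: its brightest probe set had 44.1 in CD4CD8aa IEL and 93.9 in CD4 IEL, 2.13-fold, and both other detected probe sets gave log2 differences of -1.48 and -1.39. Icam2, an adhesion molecule of lymphocytes and endothelium, had 1.85 in CD4CD8aa IEL and 7.93 in CD4 IEL, 4.28-fold lower. Podxl and Sele were higher by at least 2.04-fold and 2.62-fold and Selp was lower by at least 2.10-fold, all at signals close to the array median or below it.

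Several members are known from epithelium or B cells, so markers of other cell types are given beside them. At least 2-fold apart were 15.4% of detected epithelial markers, 50% of goblet and Paneth, 40% of B and plasma and 25% of myeloid and dendritic cell markers. The share over all detected genes was 12.9%. All 13 measured small intestinal epithelial markers were detected on both arrays, with summed signals of 47.95 in CD4CD8aa IEL and 55.1 in CD4 IEL, Vil1 higher by 2.63-fold, Krt18 lower by 2.80-fold (with 4.74 in CD4CD8aa IEL and 13.3 in CD4 IEL) and a median of -0.12. Of 9 goblet and Paneth cell markers 8 were detected, 3 at least 2-fold higher (Fcgbp, Spink4 and Clca3) and 1 lower (Muc2), with a median of 0.44. Summed signals of this list were 35.4 in CD4CD8aa IEL and 39.8 in CD4 IEL. The brightest were Lyz1 (11.3 in CD4CD8aa IEL, 15.1 in CD4 IEL) and Zg16 (9.97 in CD4CD8aa IEL, 15.6 in CD4 IEL), and Clca1 was below the floor on both arrays. Of 7 measured B and plasma cell markers 5 were detected, with summed signals of 4.12 in CD4CD8aa IEL and 6.74 in CD4 IEL, Cd79b and Sdc1 were lower by 2-fold or more, although other probe sets of Sdc1 gave 0.43 and 1.34, and Igj was below the floor on both arrays. Of 9 measured myeloid and dendritic cell markers 8 were detected, with summed signals of 61.2 in CD4CD8aa IEL and 61.99 in CD4 IEL, 1 higher (Itgax) and 1 lower (Cd14). All 8 T cell markers were detected, with summed signals of 1241 in CD4CD8aa IEL and 1066 in CD4 IEL without Cd8a, the gene that sets the populations apart. The part of such cells in the signals of St6gal1, St6galnac1, B3galt5, Fut2 and Gcnt3 was not tested.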

How the data were processed

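RNA of 1 sorted population per array was hybridised to whole-genome Affymetrix mouse chips. Per the submitters' processing notes, GCOS 1.2 was used; how background was corrected and probes were summarised is not stated in those notes or the labels. The authors deposited raw intensities and intensities divided by the array median (81.1 for CD4CD8aa IEL, 82.5 for CD4 IEL) for 45101 probe sets, per the file headers. The deposited log2 fold and the linear ratio run CD4 over CD4CD8aa, per the file headers, and were used only as a check (the log2 values are the negative of those computed here, within 5e-10). The 2 call columns name no sample and were not used.

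The values here are raw intensity over array median, and match the series matrix within a relative gap of 1.75e-07. The floor was the higher 30th percentile of the arrays, and 69.9% and 70.0% of probe sets lay above it in CD4CD8aa IEL and CD4 IEL. Of the probe sets 37782 name 1 symbol, 1399 several, 5821 none and 35 a spreadsheet date, and 64 are controls. Same-gene spread came from 20185 detected probe sets of 7380 genes. Of the member symbols 73 are current in RefSeq.

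Named with both signals were the members at least 2-fold apart or above 4 times the array median on an array, 42 in all; other detected members are given by range or where their probe sets or roles bear on a result. From the other lists the genes at least 2-fold apart are named, at most 6 a list. Some genes of these lists are counted but not reported here by name. The carriers Selplg, Spn and Ptprc, Gcnt1, Mgat3, Galnt6 and the probe sets compared were picked after their values were seen. The members and lists were chosen with earlier results of these data known. Calculations used Python 3.11.15, pandas 2.3.3 and numpy 2.4.6, and were tested on simulated data. The number of arrays limits precision.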

Additional observations from a re-analysis of the deposited data

How the results depend on the processing

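No member at least 2-fold apart went the opposite way under any of 10 other settings tried on the same 2 arrays, or when the size limit was changed to 1.5-fold or 3-fold. Much of this was fixed in advance, because a floor or a size limit cannot reverse a direction and the series matrix values match those used. Raw and centred values moved the differences little, so the counts of settings below are no measure of repeatability. St3gal3 and St6galnac1 remained at least 2-fold apart in 9 of the 10 and St6gal1 and Galnt9 in 8; B3gnt5, B3gnt9 and Fut7 did in 7, B3galt1, St6galnac5 and St8sia3 in 6, and Fut11 in 5. St6gal1 fell short at a floor of 4 array medians (-0.89) and as the median over its probe sets (-0.03). Of members, 11 were higher and 10 lower with no floor, 2 higher and 4 lower at a floor of 0.8, 1 higher and 2 lower with a floor of 2 array medians, 1 higher and 0 lower at 4 array medians, and 1 higher and 4 lower with the median over probe sets (in place of 5 higher and 6 lower). At 1.5-fold 13 were higher and 14 lower, and at 3-fold 0 were higher and 4 lower. Of all detected genes, 13.1% were higher and 12.95% lower with no floor, 3.15% and 3.41% at a floor of 0.8, 2.07% and 2.22% at 2 array medians, 1.74% and 1.73% at 4, 4.64% and 4.73% with the median over probe sets, 17.2% and 14.4% at 1.5-fold, and 1.40% and 1.88% at 3-fold. Of the 160 other pathway genes, 13 were higher and 13 lower with no floor, and 2 higher and 4 lower with the floor 2 times as high. The counts were 1 higher and 3 lower at 2 times the array median, and 1 and 2 at 4 times. They were 3 higher and 7 lower with the median over probe sets, 18 and 18 at 1.5-fold, and 1 and 3 at 3-fold. By family, members apart with no floor were 2 of 12 for O-glycan initiation, 2 of 12 for branching and 6 of 21 for chain extension. They were 5 of 9 for fucosyltransferases and 6 of 20 for sialyltransferases, beside 13.1% higher and 12.95% lower over all genes. With the floor 2 times as high they were 1 for chain extension, 1 for fucosyltransferases and 3 for sialyltransferases. At 2 and at 4 times the array median they were 0 for initiation, extension and fucosyltransferases, and 3 and 1 for sialyltransferases. Fewer members are detected under a higher floor: 52 at 0.8, 40 at 2 array medians and 34 at 4. The shares of all detected genes under these floors are those above. Fucosyltransferases held 1 with raw intensities and 1 when centred on all detected genes. Of all detected genes, 6.31% were higher and 6.47% lower with raw intensities, and 5.78% and 7.23% when centred. The median over probe sets left 1 for extension, 1 for fucosyltransferases and 2 for sialyltransferases. A limit of 1.5-fold gave 3 of 10 for initiation, 4 of 11 for branching, 7 of 18 for extension and 10 of 18 for sialyltransferases. A limit of 3-fold gave 0 of 18 for extension, 1 of 7 for fucosyltransferases and 2 of 18 for sialyltransferases. The fucosyltransferase median (0.44 as reported) was -0.47 with the floor 2 times as high, 0.26 at 2 times the array median and -0.47 at 4 times. Both values of -0.47 are that of Fut8, the only fucosyltransferase detected under the floor of 4, so they describe no family. Among medians and members within 2-fold, the branching median was 0.04 with the floor 2 times as high and the sialyltransferase median -0.11 at 4 array medians, and with the median over probe sets the initiation median was -0.07, Galnt11 -0.23, B4galt7 0.43 and St3gal6 0.11. A higher floor brings dim signals together by construction. Centring moved every difference by 0.06. Signals near the floor limit what can be said of the dim genes. No paired analysis was possible because each group has 1 array and the labels carry no replicate numbers.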
